A study of Homo sapiens with 8 samples.

Results

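Chromatin opened in ASH1L-/- cells but not in wild-type cells, and the reverse, was examined 3 h after UV light in U2OS cells, a human osteosarcoma line. WT cells and cells whose ASH1L gene had been disrupted were irradiated with UV-C at 20 J per square metre and left to recover for 3 h, with 2 libraries a side, labelled as biological replicates. The knockout came from individual colonies picked after CRISPR/Cas9 cutting of separate ASH1L exons, and the number of colonies behind these libraries is not given in the sources used here, so what belongs to the loss of ASH1L and what belongs to a colony cannot be told apart. WT and ASH1L-/- cells without UV, again 2 libraries each, served as an independent readout, and all cells received DNase before harvest to remove the DNA of dead cells. The assay was ATAC-seq, in which the transposase Tn5 cuts open DNA, and each library was represented by its list of regions enriched in reads. The regions of the 4 lists after UV were merged wherever they overlapped or adjoined, giving 313595 union sites of 547779 in the series of 8 libraries. A site was called knockout-specific when both ASH1L-/- lists and neither WT list held a region there, and WT-specific in the reverse case. There were 9297 knockout-specific sites (2.96% of the union sites) and 6668 WT-specific sites (2.13%), 15965 in all.

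ASH1L is a histone methyltransferase of the SET family that is associated with active genes and acts with the chromodomain protein MORF4L1. UV light links neighbouring pyrimidines in DNA, and global-genome nucleotide excision repair finds these lesions anywhere in chromatin through the damage sensors DDB2 and XPC before TFIIH opens the helix and nucleases cut out the damaged strand. Open chromatin in a mesenchymal line such as U2OS lies at promoters and at distal enhancers, many of which carry the motif of AP-1, the Fos and Jun family of stress-responsive factors.

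The DNA under the leading sites is shown because a region stood there in one genotype and in no list of the other. Each sequence is 201 bases of hg38, plus strand, centred on the summit, from among the 3 highest-ranked sites of each set that lay outside exons and lacked the repeated word described at the end, and named by the nearest protein-coding transcription start site (TSS). Capitals mark the AP-1 motif TGANTCA. The first group is of knockout-specific sites.
XCL1, chr1:168609365-168609565: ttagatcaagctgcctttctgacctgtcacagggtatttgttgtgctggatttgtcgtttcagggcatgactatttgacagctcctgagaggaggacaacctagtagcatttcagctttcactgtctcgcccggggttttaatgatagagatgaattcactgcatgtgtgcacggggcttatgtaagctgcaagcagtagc
ZNF718, chr4:212563-212763: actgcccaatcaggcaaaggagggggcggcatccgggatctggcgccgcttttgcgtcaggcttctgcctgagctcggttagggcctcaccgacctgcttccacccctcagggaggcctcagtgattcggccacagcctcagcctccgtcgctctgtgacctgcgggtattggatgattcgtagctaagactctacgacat
The second group is of WT-specific sites.
TPTE, chr21:10616021-10616221: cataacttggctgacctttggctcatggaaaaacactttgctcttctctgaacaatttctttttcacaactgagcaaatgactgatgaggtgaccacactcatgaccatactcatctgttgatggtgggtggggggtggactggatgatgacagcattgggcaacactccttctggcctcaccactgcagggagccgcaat
CLASP1, chr2:121521535-121521735: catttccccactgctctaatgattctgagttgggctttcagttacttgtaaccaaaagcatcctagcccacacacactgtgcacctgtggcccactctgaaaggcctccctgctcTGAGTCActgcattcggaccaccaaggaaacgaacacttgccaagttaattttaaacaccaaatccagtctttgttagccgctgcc
CTNND2, chr5:12574702-12574902: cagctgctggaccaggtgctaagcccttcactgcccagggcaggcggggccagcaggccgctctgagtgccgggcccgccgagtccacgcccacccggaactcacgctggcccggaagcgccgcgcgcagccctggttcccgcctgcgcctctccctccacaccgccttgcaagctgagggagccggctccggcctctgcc
The AP-1 motif was present in the WT-specific site in an intron of CLASP1, 4.33 kb from its TSS, and in none of the other 4 windows shown.

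The libraries after UV were close in depth, though not in enrichment, which was highest in WT replicate 2. The mean genome-wide read pileup recovered from the lists was 2.53 and 2.67 in WT and 2.45 and 2.81 in ASH1L-/-. The lists held 161647 and 166875 regions in WT and 165339 and 199262 in ASH1L-/-. Of the union sites, 52.2% had a region in a single list and 28.2% in all 4. Lists of one genotype and lists of different genotypes overlapped to a similar extent. The share of covered bases in common was 0.543 for the WT pair and 0.539 for the knockout pair, and ranged from 0.476 to 0.555 across genotypes. Sharing between WT replicate 2 and knockout replicate 2 alone gave 9779 sites, more than the 9297 knockout-specific sites. At the marker genes, 9 of 10 osteoblast and mesenchymal genes had a region within 1 kb of a TSS in all 4 lists, as did 3 of 11 genes of other cell types.

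Most genotype-specific sites were weak. Fold enrichment, the ratio of the pileup at the summit to the local background of the same library, had a median of 3.19 and 3.05 in the ASH1L-/- lists at knockout-specific sites, and of 3.10 and 3.47 in the WT lists at WT-specific sites. At the 88393 sites with a region in all 4 lists the medians were between 5.98 and 9.15. A peak caller p of 0.01 is the limit of the lists, which decides presence. Near that limit, 2.38% of knockout-specific and 2.34% of WT-specific sites had a p above 0.001 in both of their lists. A q-value below 0.05 in both lists was held by 72.7% of knockout-specific and 77.1% of WT-specific sites. In the top quartile of both lists were 86 knockout-specific and 27 WT-specific sites.

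The strongest knockout-specific sites were also open without UV. Ranked by the mean percentile of fold enrichment within their lists, the first lay in an intron of AGBL4, a carboxypeptidase gene that trims tubulin tails. Its fold enrichment was 15.4 and 17.6 in ASH1L-/- after UV, 8.74 and 13.2 in ASH1L-/- without UV, and 2.58 in 1 of the WT libraries without UV, with no region in the other 3. Each of the 10 leading knockout-specific sites had a region in both ASH1L-/- lists without UV, and 3 of the 10 had one in a WT list without UV, where their fold enrichment was 2.58, 2.56 and 2.19.

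A pair of these sites were promoters. One was 29 bp from the TSS of ZNF233, a zinc finger gene of the chromosome 19 cluster, with fold enrichments of 15.4 and 15.8 after UV and 11.5 and 15 without UV in ASH1L-/- cells. WT cells had a region there in 1 library without UV, with a fold enrichment of 2.56. The other was 53 bp from the TSS of DNAJC18, which encodes a J-domain co-chaperone, at 11.8 and 15.7 after UV and 7.68 and 14.3 without UV, and no WT list held a region. The tenth site lay 289 kb from MEIS1, a homeobox gene known as a target of ASH1L in blood cells. Its fold enrichment in ASH1L-/- cells was 14.5 and 11.5 after UV and 4.37 and 6.28 without UV.

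**Figure D1:**
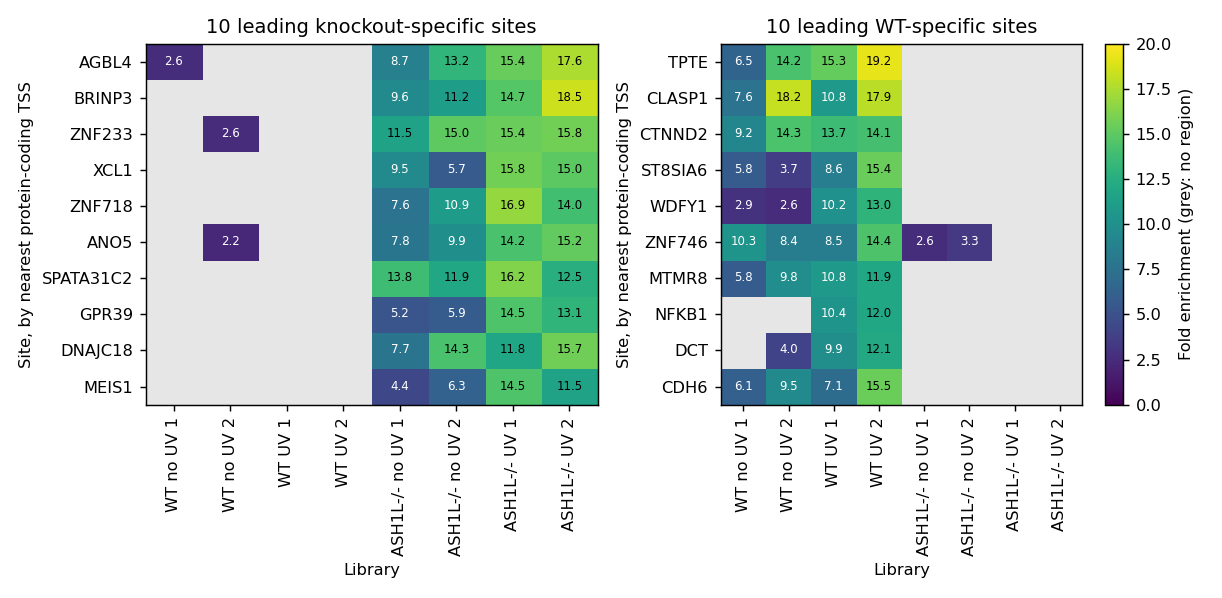
Fold enrichment in each of the 8 libraries at the 10 leading knockout-specific and the 10 leading WT-specific sites (rows, named by nearest protein-coding TSS; columns, libraries; grey, no region). The knockout-specific sites were filled in both ASH1L-/- libraries without UV, and 8 of the 10 WT-specific sites in both WT libraries without UV.

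The leading WT-specific sites behaved in the mirror-image way. The first, 94.5 kb from TPTE on chromosome 21, had fold enrichments of 15.3 and 19.2 in WT cells after UV and 6.45 and 14.2 without UV. No ASH1L-/- list held a region there. The CLASP1 site, in the gene of a microtubule plus-end protein, was at 10.8 and 17.9 after UV and 7.58 and 18.2 without UV in WT cells. Of the 10 sites, 8 had a region in both WT lists without UV. The 2 others were in an intron of NFKB1, the gene of an NF-kappaB subunit, and in an intron of GPC6, a glypican gene. The NFKB1 site had fold enrichments of 10.4 and 12 after UV and no region in any list without UV. The GPC6 site, whose nearest TSS is that of DCT, was at 9.87 and 12.1 after UV and at 4.02 in 1 WT library without UV. The site near ZNF746 was the only one of these 10 with regions in ASH1L-/- cells, at 2.62 and 3.35 without UV.

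The unchallenged libraries, which played no part in choosing the sites, were then read over all members. A region was present at 45.9% (95% Wilson interval 44.9 to 46.9) and 30.8% (29.8 to 31.7) of knockout-specific sites in the ASH1L-/- libraries, and at 16% (15.3 to 16.8) and 21.1% (20.2 to 21.9) in the WT libraries. Over all union sites the shares were 40.3% and 32.4% in the ASH1L-/- libraries and 33.2% and 37.4% in the WT libraries. Knockout-specific sites were therefore above that background in 1 ASH1L-/- library, below it in the other, and well below it in both WT libraries. The ASH1L-/- library above it, replicate 1, was the deepest, with a recovered mean pileup of 5.87 and 220783 regions. The mean pileup was 1.39 in ASH1L-/- replicate 2 and 2.10 and 1.74 in the WT libraries, so the unchallenged libraries were not matched in depth. For WT-specific sites the order was turned round, with 25.3% (24.3 to 26.4) and 35.5% (34.4 to 36.7) in the WT libraries and 21.7% (20.7 to 22.7) and 16% (15.2 to 16.9) in the ASH1L-/- libraries, all 4 below the share over all union sites. These intervals cover counting error only. The log2 ratio of the knockout-specific to the WT-specific share was 1.08 and 0.94 in the ASH1L-/- libraries and -0.66 and -0.75 in the WT libraries, so the genotypes did not overlap. The difference was 1.72, and the exact permutation test, two-sided, gave p = 0.33, the smallest value that 2 against 2 libraries allow.

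**Figure D2:**
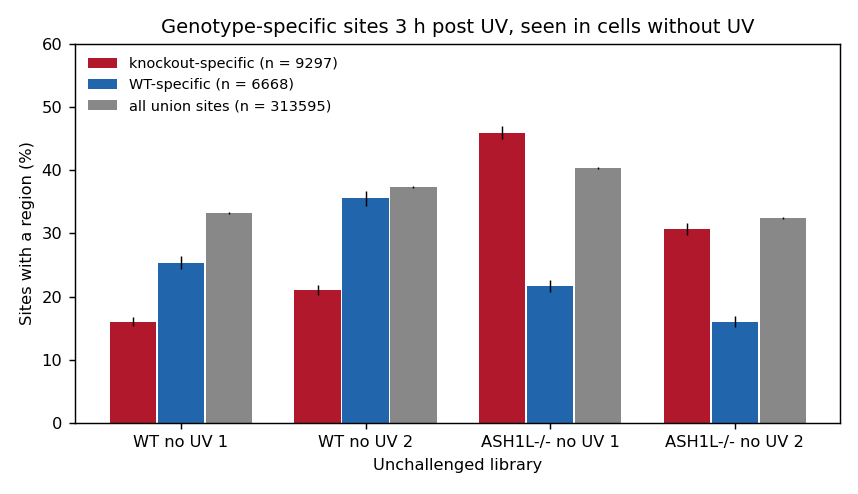
Percentage of knockout-specific, WT-specific and all union sites (bars; error bars, 95% Wilson intervals) that had a region in each of the 4 libraries without UV. Knockout-specific sites stood at 45.9% and 30.8% in the ASH1L-/- libraries and at 16% and 21.1% in the WT libraries.

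The same rule applied to the unchallenged lists gave 9664 knockout-specific sites, of which 1004 (10.4%) were also specific to the knockout after UV, and 8172 WT-specific sites, of which 435 (5.32%) were also specific to WT after UV. Seen from the UV side, 1011 knockout-specific sites (10.9%) had a region in both unchallenged ASH1L-/- lists and in neither WT list, and 91 (0.979%) showed the opposite arrangement. The corresponding numbers for WT-specific sites were 427 (6.40%) in WT alone and 68 (1.02%) in the knockout alone. Over all union sites 1.96% had a region in both unchallenged ASH1L-/- lists alone and 1.77% in both WT lists alone. No unchallenged list held a region at 3414 knockout-specific sites (36.7%) and 2904 WT-specific sites (43.6%), beside 43.6% of all union sites.

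Sites with a region in all 4 lists after UV allowed a comparison of size rather than presence. Log2 fold enrichment, centred on the median of each library, was compared with limma, and 1186 of 88393 sites (1.34%) were higher and 1058 (1.2%) lower in ASH1L-/- at a Benjamini-Hochberg adjusted p below 0.05. The median difference was 1.11 at sites called higher and -1.09 at sites called lower, against 0.02 over all tested sites. The number of calls changed with the settings. Quantile normalisation left 0 and 0 sites in the same limma test (smallest adjusted p = 0.0656, with 10825 sites at an unadjusted p below 0.05), and so did leaving out WT replicate 1 or WT replicate 2. Leaving out knockout replicate 1 gave 136 higher and 207 lower sites, and leaving out knockout replicate 2 gave 166 and 129. With 1 library left out, the spread comes from the remaining pair of the other genotype, and the lone library is assumed to vary like that pair. Scaling each library to one spread after centring gave 517 and 424, and quantile normalisation with a term for the replicate number gave 1078 and 1104.

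The largest rise was at a distal site 23.5 kb from SNX2, a sorting nexin gene, where fold enrichment was 3.40 and 2.45 in WT and 15.2 and 16.6 in ASH1L-/-. The limma difference was 2.59 ± 0.29 (SE) on the log2 scale, adjusted p = 1.2e-09. Without UV the same site was at 3.55 and 4.75 in WT and 9.21 and 12.5 in ASH1L-/-, so the 2 genotypes were apart in both states. A site 108 kb from JARID2, which encodes a Polycomb partner, rose by 2.23 ± 0.29 with fold enrichments of 2.55 and 2.26 in WT and 10.5 and 10.0 in ASH1L-/-. Without UV it was at 7.06 and 6.28 in ASH1L-/-, and neither WT list had a region. The other 8 leading rises were between 2.04 and 2.2, at sites nearest to NPFFR2, SUCLG1, SGO1, ARGLU1, TLL1, ZNF354B, MINAR1 and HS3ST2. None of the 10 was within 1 kb of a TSS.

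The largest fall was in an intron of NCOA2, a nuclear receptor coactivator gene. Fold enrichment was 12.5 and 23.4 in WT and 2.61 and 3.41 in ASH1L-/-, a limma difference of -2.38 ± 0.28, adjusted p = 6.9e-09. Without UV it was 12 and 7.67 in WT, and 2.62 with no region in the other library in ASH1L-/-. A site 15.5 kb from CD1E, a lipid antigen presentation gene, fell by 2.14, with 10.2 and 17.5 in WT and 2.90 and 2.62 in ASH1L-/-. An intronic site of COL12A1, a fibril-associated collagen gene, fell by 2.03, with 10.2 and 16.1 in WT and 2.61 and 3.15 in ASH1L-/-. A site 651 bp from a TSS of GRK1, the rhodopsin kinase gene, fell by 2.0, with 10.7 and 13 in WT and 2.60 and 2.77 in ASH1L-/-. The other 6 leading falls were between -2.11 and -1.87, in introns of TAF2, ANKRD12, TRIO and PRRC2B or near RAP2A and NETO1. All 20 leading sites lost the call under quantile normalisation and without either WT library, with no change of direction. The differences stayed large, with 2.45 at the SNX2 site and -2.47 at the NCOA2 site under quantile normalisation, and 2.05 to 3.13 and -2.53 to -2.24 without a WT library. All 20 kept the call under quantile normalisation with a term for the replicate number. The windows of 3 of them, picked after the motif was seen in them and shown in the form used above, read as follows.
JARID2, chr6:15138159-15138359: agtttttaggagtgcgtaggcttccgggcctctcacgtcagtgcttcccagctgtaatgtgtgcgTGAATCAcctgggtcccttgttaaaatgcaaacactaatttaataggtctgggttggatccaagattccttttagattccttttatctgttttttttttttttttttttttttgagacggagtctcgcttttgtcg
CD1E, chr1:158371306-158371506: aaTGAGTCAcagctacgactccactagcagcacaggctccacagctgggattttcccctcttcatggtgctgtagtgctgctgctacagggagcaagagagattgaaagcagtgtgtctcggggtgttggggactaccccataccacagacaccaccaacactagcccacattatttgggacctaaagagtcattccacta
GRK1, chr13:113727037-113727237: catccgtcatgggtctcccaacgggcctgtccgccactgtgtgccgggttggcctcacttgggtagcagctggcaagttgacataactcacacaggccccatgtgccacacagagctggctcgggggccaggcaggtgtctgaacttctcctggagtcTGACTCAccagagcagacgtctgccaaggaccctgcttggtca
The JARID2 site, higher in ASH1L-/-, and the CD1E and GRK1 sites, lower in ASH1L-/-, each held 1 AP-1 motif. The choice of windows fixed this, so it says nothing of the direction of change. The windows of the SNX2, NPFFR2 and COL12A1 sites, not shown, held no AP-1 motif.

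The called sites were then looked up in the unchallenged libraries, none of which entered the test after UV. Of the 506 sites called higher that had a region in all 8 lists, 459 (90.7%) were also higher in ASH1L-/- without UV, beside 55.5% of all tested sites. Of the 333 sites called lower, 271 (81.4%) were also lower without UV, beside 44.5% of all tested sites. The median difference without UV was 0.55 at sites called higher and -0.38 at sites called lower, and at the same sites after UV it was 1.08 and -1.07. The sites were selected for a large difference after UV, so the larger value after UV is part of the choice. Whether the genotype difference changed with UV was tested directly at the 60324 sites present in all 8 lists. Limma called 0 sites (0%) for this interaction, with 2324 at an unadjusted p below 0.05. The same fit of all 8 libraries called few sites for the genotype itself, 19 higher (0.0315%) and 20 lower (0.0332%) after UV and 18 higher (0.0298%) and 3 lower (0.00497%) without UV. Leaving out the unchallenged WT replicate 2 gave 10 higher and 70 lower sites, while quantile normalisation and a fit with a term for the replicate number left 0. Over those 60324 sites the differences after and without UV had a Pearson correlation of 0.36, given as a description across sites, which share libraries and are not independent.

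**Figure D3:**
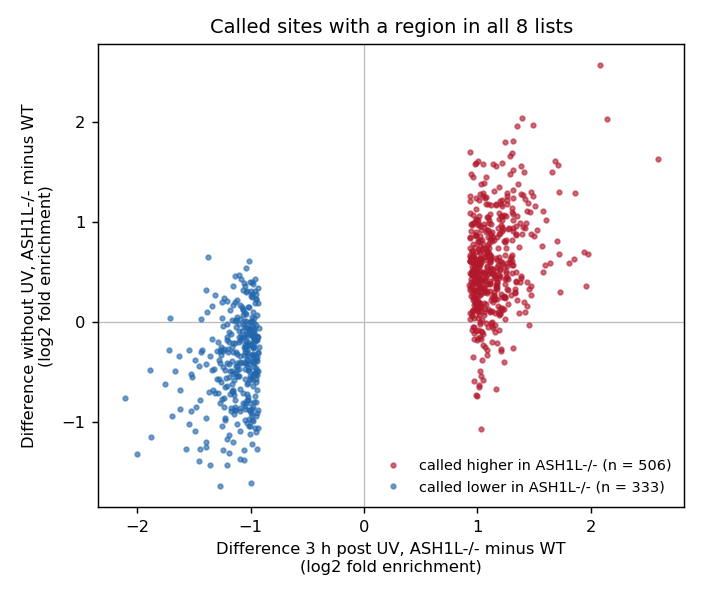
Difference in log2 fold enrichment, ASH1L-/- minus WT, after UV (horizontal, the values that chose the sites) and without UV (vertical) at called sites present in all 8 lists. Of 506 sites called higher, 459 lay above 0 on the vertical axis, and of 333 called lower, 271 lay below 0.

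Few genotype-specific sites were promoters. A summit within 1 kb of a protein-coding TSS was found at 7.21% of knockout-specific sites, 10.2% of WT-specific sites, 19.7% of sites in all 4 lists and 11% of all union sites. Of knockout-specific sites 54.7% were intergenic, beside 46.9% of WT-specific sites, and their median distance to a TSS was 34.8 kb, against 21.3 kb for WT-specific sites and 23.3 kb for all union sites. Among the 17438 promoter sites tested by limma, 74 (0.424%) were called higher and 65 (0.373%) lower.

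Genes of the repair pathway were open in both genotypes. All 9 damage-recognition genes, among them DDB1, DDB2, XPC, ERCC6 and ERCC8, had a region within 1 kb of a TSS in each of the 4 lists, as did 9 of 10 TFIIH genes and all 11 excision and resynthesis genes. The exception, GTF2H2, has near-identical copies in the genome and had no region there in any list. Limma called 0 of 43 tested TSS sites of these 3 groups. Of all promoter sites 0.424% were called higher and 0.373% lower, so that few or no calls would be reached at that rate. For each gene the TSS site with the highest fold enrichment in WT replicate 2 after UV was also read. That WT value also enters the difference, so the choice can shift the difference towards WT. Differences at these sites were between -0.21 and 0.34 on the log2 scale. At XPC, the lesion sensor, fold enrichment was 16.8 and 15.4 in WT and 14.7 and 14.9 in ASH1L-/-. At DDB2, its partner in lesion recognition, it was 9.97 and 10.1 in WT and 9.64 and 10.6 in ASH1L-/-. The 5 genotype-specific sites at a TSS within these groups were WT-specific, at CUL4A (1), DDB1 (1), ERCC3 (2) and MNAT1 (1). Over the whole genes, 8 of 226 union sites were WT-specific (3.54%) and 3 were knockout-specific (1.33%), at DDB1, ERCC6 and ERCC8, beside 2.13% and 2.96% of all union sites. In each of these genes a further TSS region was present in all 4 lists.

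The p53 targets and the AP-1 and immediate-early genes had a TSS region in all 4 lists without exception, 16 of 16 and 12 of 12. Their TSS sites gave 0 calls among 27 and 19 tested, and numbers this small are not set apart from the promoter shares of 0.424% and 0.373%. At the TSS site of each gene that was strongest in WT replicate 2 after UV, the median differences were 0.05 and 0.11. At CDKN1A, the p21 gene, the TSS site chosen in this way had fold enrichments of 2.65 and 2.72 in WT and 4.24 and 2.93 in ASH1L-/-. The difference was 0.53 ± 0.29, adjusted p = 0.478 by limma. The HOXA genes and MEIS1, known as ASH1L-dependent in leukaemia, held no genotype-specific site among 57 union sites, beside 2.96% and 2.13% of all union sites, and 0 of their 18 tested TSS sites were called. Within the MEIS1 gene, 1 site away from its TSS was called higher in ASH1L-/-.

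In the group of histone methyltransferases, 1 of 18 TSS sites was called, at NSD2. Fold enrichment there was 5.95 and 13 in WT and 2.61 and 2.88 in ASH1L-/-, a difference of -1.55 ± 0.28, adjusted p = 0.00021. The highest fold enrichment at any TSS of NSD2 was 8.77 and 13 in WT and 5.35 and 10.2 in ASH1L-/-. Among the mesenchymal markers, 1 of 3 tested TSS sites of FN1, the fibronectin gene, was called lower. It was at 10.4 and 10.1 in WT and 4.54 and 4.12 in ASH1L-/-, a difference of -1.12 ± 0.28, adjusted p = 0.0123. The highest fold enrichment at any TSS of FN1 was 10.4 and 10.1 in WT and 7.94 and 8.09 in ASH1L-/-. Without UV that value was 4.34 and 8.0 in WT and 5.76 and 6.77 in ASH1L-/-, with overlap. Both calls were lost with quantile normalisation, which left none, and 1.2% of all tested sites were called lower. The targeted gene itself had a TSS region in all 4 lists, with fold enrichments of 10.0 and 11.4 in WT and 12.1 and 10.4 in ASH1L-/-. Its gene body held 11 and 9 regions in WT and 4 and 9 in ASH1L-/- after UV, with overlap of the genotypes. Without UV it held 14 and 14 regions in WT and 4 and 3 in ASH1L-/-, without overlap. The 5 Mb bin of chromosome 1 that holds ASH1L, from 155 to 160 Mb, had lower pileup in ASH1L-/- at sites shared by all 8 lists. The log2 difference there was -0.51 without UV and -0.40 after UV. Its part in these region counts was not tested.

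Genotype-specific sites were unevenly spread along the genome. Knockout-specific sites made up 4.91% of the union sites of chromosome 4, the highest share of any chromosome, and 1.89% on chromosome 16, the lowest. WT-specific sites made up 4.26% on chromosome 13, again the highest, and 1.31% on chromosome 15. In 591 bins of 5 Mb, the highest knockout-specific share was 10.1% and the highest WT-specific share 17.4%. Runs of at least 3 adjoining bins with more than 2 times the genome-wide share were found at 1 place for knockout-specific sites, chromosome 4 between 105 and 120 Mb (170 of 1902 sites, 8.94%). For WT-specific sites there were 4, of which the strongest was chromosome 13 between 80 and 110 Mb (124 of 952 sites, 13%).

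The read pileup of these stretches differed between the genotypes with and without UV. On chromosome 4 between 105 and 120 Mb, the pileup at sites shared by all 8 lists was higher in ASH1L-/- by a median of 0.50 (log2) after UV and 0.53 without UV, and the local background by 0.46 and 0.48. Along its bins the pileup difference was 0.54, 0.82 and -0.14 after UV and 0.52, 0.81 and -0.13 without UV. The last of these bins, from 115 to 120 Mb, had 7.61% knockout-specific sites despite its lower pileup. On chromosome 13 between 80 and 110 Mb the pileup difference was -0.76 after UV and -0.71 without UV, and the local background differed less, by -0.51 and -0.25. The other 3 stretches, on chromosomes 3, 6 and 16, had pileup differences between -0.41 and -0.49 after UV and between -0.43 and -0.49 without UV, with local background between -0.41 and -0.45 and between -0.25 and -0.39. Over the 591 bins the excess of knockout-specific over WT-specific sites, in percentage points, had a Pearson correlation of 0.73 with the pileup difference of the unchallenged libraries, a description over bins that share libraries. Bins in which the unchallenged pileup was over 0.25 higher in ASH1L-/- had 5.08% knockout-specific and 0.957% WT-specific sites. Bins in which it was over 0.25 lower had 1.66% and 4.0%. The remaining 459 bins still held 7455 knockout-specific (3.03%) and 4602 WT-specific sites (1.87%). The part of copy number in these shares was not tested.

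**Figure D4:**
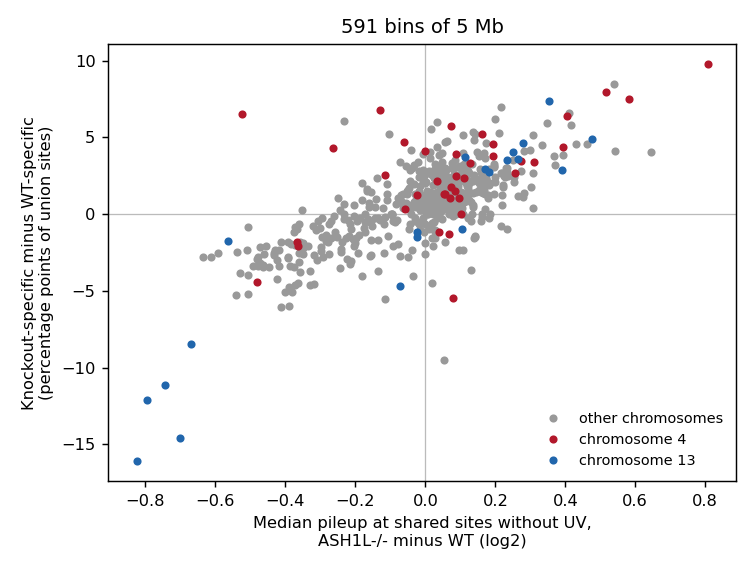
Knockout-specific minus WT-specific sites, in percentage points of union sites (vertical), against the median log2 pileup difference without UV, ASH1L-/- minus WT (horizontal), in 591 bins of 5 Mb (points; chromosomes 4 and 13 coloured). The bins with the lowest pileup in ASH1L-/- lay on chromosome 13 and had the highest WT-specific share, up to 17.4%.

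Genes were then ordered by the share of their union sites that were members, among 1146 protein-coding genes with at least 30 union sites. The protocadherin gamma genes on chromosome 5, nested genes of neuronal adhesion proteins that share one interval, had the highest knockout-specific share, with 9 of 33 union sites for PCDHGA2. DKK2, a Wnt antagonist gene (8 of 40), and NDST4 (7 of 41) followed, both within the stretch of chromosome 4. Next came APBA2 on chromosome 15 (5 of 32), UNC5C, a netrin receptor gene on chromosome 4 outside the stretch (10 of 71), KIF6 on chromosome 6 (7 of 51), ITSN1 on chromosome 21 (4 of 30) and MAGI1 on chromosome 3 (4 of 31). The bin that holds UNC5C, from 95 to 100 Mb, also had a high knockout-specific share, 8.30% of its union sites. Its pileup was lower in ASH1L-/-, with a log2 difference of -0.42 after UV and -0.52 without UV. CAMK2D, a calmodulin kinase gene (10 of 82), lay within the stretch. On the WT side, the glypican genes GPC5 (7 of 31) and GPC6 (9 of 53), both within the stretch of chromosome 13, led, followed by CFAP46 (6 of 41) on chromosome 10 and FNDC3B (5 of 36), within the stretch of chromosome 3.

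The sequence of the members differed in its share of AP-1 motifs. Within 150 bases of the summit, TGANTCA on either strand was present at 22.2% of knockout-specific and 37.9% of WT-specific sites, beside 41.9% of sites in all 4 lists and 25.6% of all union sites. Outside promoters the shares were 22.7% and 40.1%, beside 48.4% of sites in all 4 lists and 27.1% of all union sites. At the sites called by limma the motif was present at 35.8% of those higher and 62.9% of those lower in ASH1L-/-. TEAD motifs (GGAATG, either strand) went the other way, with 23.3% of knockout-specific and 18.6% of WT-specific sites, beside 20.7% of all union sites. They were present at 34.1% of sites called higher and 19.1% of sites called lower, beside 24.1% of sites in all 4 lists. RUNX motifs (TGTGGT) differed little, at 24.1% and 25.4%, beside 24.0% of all union sites. Median GC content was 48.8% at knockout-specific and 48.2% at WT-specific sites. Over whole lists AP-1 motifs were found at 31.6% and 36.8% of regions in WT and 31.9% and 29.3% in ASH1L-/- after UV, with overlap of the genotypes. Without UV, in lists that did not choose the sites, the shares were 22.7% and 25.3% in WT and 21.0% and 24.1% in ASH1L-/-, again with overlap.

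Knockout-specific sites also shared a repeated word. Of all words of 16 letters in their windows, the one with the largest excess over all union sites, chosen after the sequences were seen, was present at 129 knockout-specific sites (1.39%), 11 WT-specific sites (0.165%) and 916 union sites (0.292%).
Knockout-specific word: atctcagactgctgtg
Of those 916 sites, 14.1% were knockout-specific, against 2.96% of all union sites, and 1.2% were WT-specific. The word has 4707 exact copies on chromosomes 1 to 22 and X of hg38 and is known, from general knowledge and not from a repeat annotation, from the 5' promoter of LINE-1 retrotransposons. These mobile elements have near-identical copies, so the source copy of a read can be uncertain despite the authors' mapping quality filter. The leading AGBL4 site holds it. Counted in each list on its own, the word was present in 1.97 and 2.11 of 1000 regions in WT and 2.86 and 3.19 in ASH1L-/- without UV, and in 2.26 and 2.24 in WT and 3.35 and 3.57 in ASH1L-/- after UV. Without UV, in lists that played no part in choosing the word, the genotypes did not overlap. After UV, the order is part of the choice. At the 129 knockout-specific sites with the word, the unchallenged ASH1L-/- lists held a region at 62.8% and 51.2%, and the unchallenged WT lists at 6.20% and 10.1%.

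Among WT-specific sites, the word of 16 letters with the largest excess was a run of A ending in G, present at 196 of them (2.94%) and at 2.23% of union sites. After this was seen, each base was required at least 2 times, which left the word of the knockout-specific sites as it was. The WT-specific word chosen in this way contains an AP-1 motif, in capitals on the strand shown, and, again from general knowledge, resembles the start of Alu elements.
WT-specific word: gTGACTCAtgcctgta
It was present at 62 WT-specific sites (0.930%), 14 knockout-specific sites (0.151%) and 984 union sites (0.314%). Per 1000 regions it was found 2.71 and 3.12 times in WT and 1.96 and 2.46 times in ASH1L-/- without UV, and 3.77 and 4.86 times in WT and 3.12 and 3.0 times in ASH1L-/- after UV. The genotypes did not overlap without UV, and the order after UV again belongs to the choice of the word.

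**Figure D5:**
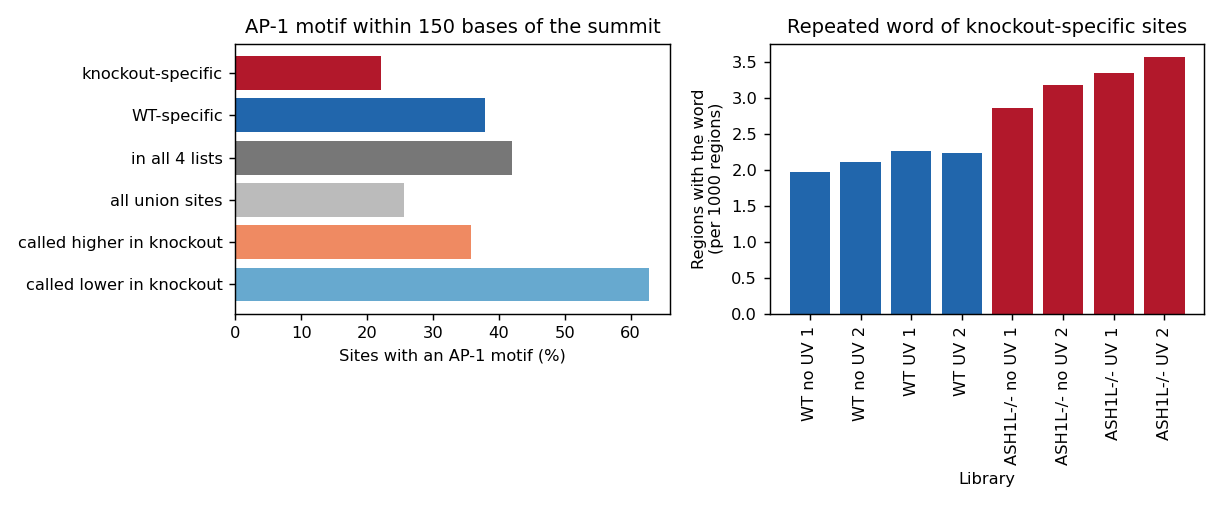
Left, percentage of sites with the AP-1 motif TGANTCA in the summit window for each set of sites after UV. Right, regions holding the repeated word of the knockout-specific sites per 1000 regions of each of the 8 lists, 1.97 to 2.26 in WT and 2.86 to 3.57 in ASH1L-/-. The lists after UV served to choose the word.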

How the data were processed

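Members and gene lists were chosen with earlier results of these data known, and the shared words and their rule on bases, the printed sequences, the runs of bins and the pileup limit of 0.25 after values were seen. The authors trimmed reads with cutadapt 1.9.1, aligned them with Bowtie2 2.4.5 to hg38 without chromosome Y, removed duplicates, blacklisted regions and low mapping quality, and called peaks per library with MACS2 2.2.7.1. The deposited lists hold a fold enrichment (a ratio to local background), −log10 p-values and q-values, a score (not used) and a summit offset, with no normalisation between libraries. From fold and p, whole-number pileup and background were recovered (within 0.02 of the deposited −log10 p for 100% of regions), of which the minimum background gives relative depth. Read numbers are unknown. A region is a distinct interval with its strongest record. Presence needed 1 bp of overlap. Limma 3.58.1 (R 4.3.3) compared log2 fold enrichment, with 4 group means for the interaction, after a check on simulated data. The p-values measure the spread between libraries labelled biological replicates, which limma draws towards a spread shared by all sites. The weight of the shared spread was 104 prior degrees of freedom in the main fit after UV and 6.61 under quantile normalisation. The small p-values of the main fit therefore rest mostly on the shared spread and little on that of the single site. Named sites were the 10 with the highest mean within-list percentile in each set and the 10 largest called differences each way. Annotation and sequence were GENCODE 44 and hg38. The sequence of 1 of these sites is not reported here. Marker genes and gene lists were counted by regions within 1 kb of any TSS. Alternatives covered q-value limits, equal list sizes, overlap, normalisation, replicate block and left-out libraries. Presence sets had no test.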

Additional observations from a re-analysis of the deposited data

How the results depend on the processing

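The 9297 knockout-specific sites became 5634 and the promoter share of these sites 8.22% with regions at q of 0.01 or below, and the top quartile of each list left 3212 knockout-specific and 1534 WT-specific sites. A promoter of 2 kb raised the promoter shares to 10.7% and 14.9%. The knockout-specific share of chromosome 4 was 4.17% at the stricter q and 4.42% with lists of equal size, and the WT-specific share of chromosome 13 was 5.43% and 4.99%. Leaving out 1 library after UV loosens the presence rule and gave 11340 to 69202 knockout-specific and 10305 to 48043 WT-specific sites, with 6.32% to 33.9% on chromosome 4 and 5.8% to 18.7% on chromosome 13. For the limma calls (1186 higher, 1058 lower), quantile normalisation gave 0 and 0, sites above the median fold enrichment 240 and 265, one common spread, added after seeing the data, 517 and 424, and left-out libraries 0 to 166 and 0 to 207. The replicate block gave 2004 and 1818, and 1078 and 1104 together with quantile normalisation. Same-numbered replicates had deviations correlated at 0.147 over 2 pairs, which does not establish a pairing. For the interaction, left-out libraries gave 0 to 10 and 0 to 70 sites, and the replicate block 0. The carry-over difference of 1.72 ranged from 1.54 to 2.42 and kept its sign. The causes were not tested. With 2 libraries a group, no single exact test can pass 0.05, and fold enrichment at weak sites rests on a median pileup of 11 to 15 reads.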
